A study of Mus musculus with 2 samples.

Results

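Cycling T cells in this study are the splenic T cells that held transcripts of cell division. A droplet barcode with at least 500 detected genes and at most 10% mitochondrial counts was taken as a T cell when its unique molecular identifier (UMI) counts of the CD3 chain genes Cd3d, Cd3e and Cd3g summed to at least 2 and the B cell gene Cd79a had at most 1 UMI. It was chosen as cycling by its own counts, when Mki67, Top2a, Birc5, Ube2c, Cdk1, Nusap1, Cenpf and Ccnb2 together had at least 6 UMIs. This rule found 410 cells among 12977 T cells, out of 16731 deposited barcodes. They were 242 cells from Foxp3YFP-Cre Kmt2d fl/fl mice (here fl/fl) and 168 cells from Foxp3YFP-Cre Kmt2d +/+ mice (here +/+). Both genotypes carry a Cre recombinase with a yellow fluorescent protein driven from the Foxp3 locus, so that the floxed alleles are a target in cells that express Foxp3. From each genotype, spleen cells sorted as CD4+FoxP3+ regulatory T cells (Treg cells) of 3 mice were pooled into 1 library with a 10x Genomics 3′ kit, and the age of the mice is not given in the sources used here. With 1 library per genotype there is no replicate, no test across mice and no p-value, and every difference below describes these 2 libraries. All intervals are 95% intervals that cover counting error only.

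Proliferating cells copy their DNA in S phase and divide in M phase after a gap, G2. Genes of DNA replication are switched on by E2F factors at the entry to S phase, while many genes of the mitotic spindle and of chromosome segregation are held off in resting cells by the DREAM complex and come on later, through promoter elements that include the cell cycle genes homology region (CHR) and the CCAAT box bound by NF-Y. Treg cells restrain immune responses. In mouse spleen they comprise resting cells, which resemble naive T cells, and activated effector cells, which divide more. Kmt2d encodes a histone H3 lysine 4 methyltransferase, and P2rx7, named in the series title, encodes an ATP-gated channel of the cell surface.

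Promoters of a pair of rule genes and of a pair of S phase genes are shown as examples. The rule genes chose the cells and are left out of the G2/M list of the phase comparison below. Each runs from 250 bases before to 50 bases after the transcription start in the strand of the gene, from RefSeq (GRCm38.p6). Capitals mark the CHR core (TTTGAA), the CCAAT box (these 5 letters) and either of the E2F sites searched, which were TTTCCCGC and the variant TTTGGCGC. Both strands were searched, so a match on the opposite strand stands as its reverse complement, and matches could overlap.
Ccnb2 (chr9:70421505-70421804, minus strand): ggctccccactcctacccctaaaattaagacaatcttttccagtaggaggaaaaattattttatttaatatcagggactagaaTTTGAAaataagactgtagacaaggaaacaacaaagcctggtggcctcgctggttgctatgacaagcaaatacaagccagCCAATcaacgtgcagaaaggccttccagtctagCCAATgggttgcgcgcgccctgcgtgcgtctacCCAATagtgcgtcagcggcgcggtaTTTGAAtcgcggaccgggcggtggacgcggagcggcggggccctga
Cdk1 (chr10:69352863-69353162, minus strand): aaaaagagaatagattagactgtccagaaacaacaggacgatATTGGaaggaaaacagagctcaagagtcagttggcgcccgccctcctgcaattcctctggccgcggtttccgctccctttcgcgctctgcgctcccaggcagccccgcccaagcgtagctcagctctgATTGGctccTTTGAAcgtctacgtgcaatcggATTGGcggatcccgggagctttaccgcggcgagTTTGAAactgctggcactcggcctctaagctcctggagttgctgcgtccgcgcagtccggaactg
Mcm5 (chr8:75109259-75109558, plus strand): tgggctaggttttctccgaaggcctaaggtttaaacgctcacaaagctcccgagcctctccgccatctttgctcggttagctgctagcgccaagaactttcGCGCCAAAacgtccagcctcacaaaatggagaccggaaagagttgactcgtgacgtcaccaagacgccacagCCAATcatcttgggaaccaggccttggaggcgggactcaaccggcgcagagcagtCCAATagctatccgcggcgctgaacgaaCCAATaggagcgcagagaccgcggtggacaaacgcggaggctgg
Mcm6 (chr1:128359656-128359955, minus strand): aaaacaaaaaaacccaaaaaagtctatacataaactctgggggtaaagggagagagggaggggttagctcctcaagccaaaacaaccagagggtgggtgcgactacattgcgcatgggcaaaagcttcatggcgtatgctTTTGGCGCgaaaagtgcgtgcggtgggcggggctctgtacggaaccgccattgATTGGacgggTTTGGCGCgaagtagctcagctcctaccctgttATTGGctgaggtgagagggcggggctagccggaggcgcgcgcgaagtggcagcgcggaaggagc
The Ccnb2 and Cdk1 promoters each hold 2 CHR matches, 3 CCAAT boxes and 0 E2F matches. Mcm5 and Mcm6 hold 0 CHR matches and 1 and 2 E2F matches. Other promoters differed from these pairs. Those of the rule genes Birc5 and Nusap1 hold 0 matches of any kind. Mcm2 holds 1 CHR match and 0 E2F matches, and Pcna and Rrm2 hold 0 E2F matches. In all, 6 of the 8 rule genes have a CHR match and 6 have a CCAAT box, and 0 have an E2F match. A CHR match is found in 68.0% of the 50 G2/M genes with a promoter given, against 13.5% of 37 S phase genes and 18.1% of all 27025 promoters of this length. An E2F match is found in 3 of these G2/M genes, in 32.4% of the S phase genes and in 1.63% of all promoters. A CCAAT box is found in 76.0% of the G2/M genes, 64.9% of the S phase genes and 37.9% of all promoters. These matches describe letters in a window and are not evidence of binding.

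The label of dividing cells was checked with the 4 markers Mki67, Top2a, Birc5 and Ube2c, all of which belong to the rule, so their levels describe the choice and are no finding. Mki67, the Ki-67 antigen of cycling cells, had a UMI in 171 of 189 fl/fl and 102 of 119 +/+ cycling cells of the Ikzf2-high class defined next. In non-cycling cells of that class it had one in 4.54% of fl/fl and 3.54% of +/+ cells. At the edge of the rule, the 7 fl/fl and 6 +/+ cells with a sum of exactly 6 had medians of 37 and 22 UMIs of a 59-gene G2/M list that leaves out the rule genes. The 16 fl/fl and 7 +/+ cells just outside it, with a sum of 5, had medians of 23 and 26, against 9 and 9 in cells with a sum of 0. The cells at the edge were thus few and graded into the cells outside it.

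The cycling cells fell into 3 classes. Those with at least 3 UMIs of Ikzf2, which encodes the Treg-associated transcription factor Helios, made up 189 fl/fl cells (78.1%, 72.4 to 83.1) and 119 +/+ cells (70.8%, 63.3 to 77.6). Among non-cycling T cells, which held fewer UMIs a cell, the shares were 61.6% and 61.7%. With cycling cells thinned to 5000 UMIs the Ikzf2-high shares were 70.0% in fl/fl and 55.5% in +/+ cells. Thinned in this way, the share was above that of the unthinned non-cycling T cells in fl/fl only. Those with a UMI of the CD8 chain gene Cd8b1 and less Ikzf2 were 11 fl/fl (4.55%) and 14 +/+ cells (8.33%). The remaining 42 fl/fl (17.4%) and 35 +/+ cells (20.8%) had under 3 Ikzf2 UMIs and no Cd8b1 UMI. In this remaining class 17 fl/fl (40.5%) and 15 +/+ cells (42.9%) still held an Ikzf2 UMI. Of B cells, which should lack both genes, 0.315% of fl/fl and 0 of 514 +/+ cells met the Ikzf2 rule, a count that allows up to 0.715%.

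The Ikzf2-high class carried other Treg genes. Ctla4, an inhibitory receptor abundant on Treg cells, had a UMI in 96.3% of fl/fl and 94.1% of +/+ cells of the class. It was also common in the other cycling classes, with 8 of 11 fl/fl and 9 of 14 +/+ Cd8b1+ cells and 61.9% and 77.1% of the remaining class. Il2ra, a receptor chain for interleukin-2, had one in 67.7% and 62.2%. In cycling Cd8b1+ cells Il2ra had one in 0 of 11 fl/fl and 2 of 14 +/+ cells, and in the remaining class in 7 of 42 and 9 of 35. Foxp3, which defines Treg cells and on which the sort rested, was detected sparsely, in 34 of 189 fl/fl (18.0%) and 23 of 119 +/+ cells (19.3%). It was in 0 of 42 fl/fl and 2 of 35 +/+ cells of the remaining class, and in 0.158% and 0.195% of B cells, whose median depths were 4465 and 5036 UMIs. The classes overlap in part, since 34 fl/fl and 13 +/+ Ikzf2-high cycling cells also had a Cd8b1 UMI. Cd4 had a UMI in 76.2% of fl/fl and 85.7% of +/+ Ikzf2-high cycling cells, in 57.1% and 88.6% of the remaining class, and in 1 of 11 and 1 of 14 Cd8b1+ cells. Because Foxp3 was seen in so few Ikzf2-high cells, its absence from a cell of another class says little about that cell.

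A larger share of T cells was cycling in the fl/fl library. Cycling cells were 3.73% (3.28 to 4.22) of 6493 fl/fl T cells and 2.59% (2.22 to 3.01) of 6484 +/+ T cells, a ratio of 1.44. In the Ikzf2-high class the shares were 4.68% (4.05 to 5.37) of fl/fl and 2.96% (2.46 to 3.53) of +/+ cells, with intervals that are apart. In the Cd8b1+ class the shares were 2.77% (1.39 to 4.90) and 4.11% (2.26 to 6.79), and in the remaining class 2.04% (1.48 to 2.75) and 1.65% (1.15 to 2.28), with intervals that overlap. Whether the classes differ in this was not tested. With each T cell thinned to 2500 UMIs and a sum of at least 3, the shares were 3.33% (2.91 to 3.80) and 1.92% (1.59 to 2.28). Non-cycling T cells had a median of 6215 UMIs in the fl/fl and 5551 in the +/+ library. Among B cells, 5.20% of 1270 fl/fl and 1.56% of 514 +/+ cells also reached the sum of 6, so the higher share was not particular to T cells. The sort and its purity can set these shares.

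**Figure D1:**
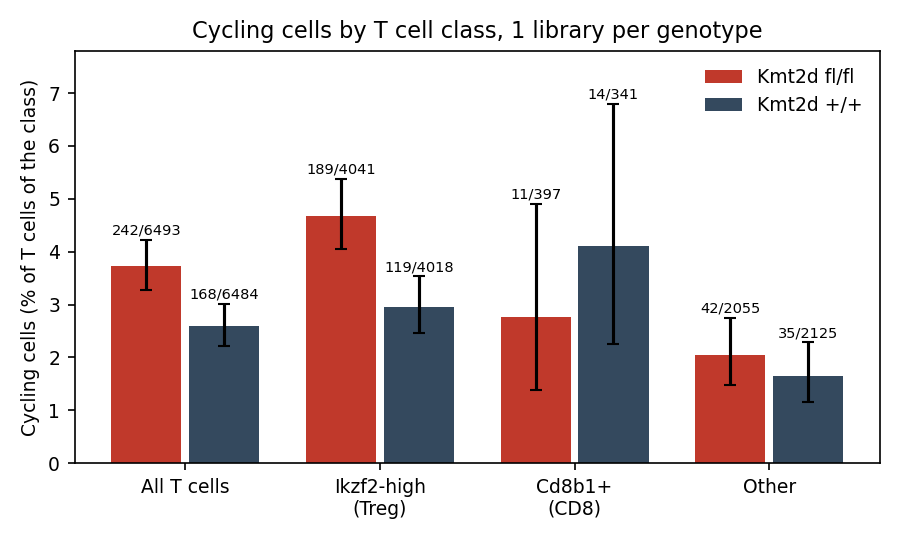
Cycling cells as a percent of all T cells and of each T cell class, fl/fl in red beside +/+ in dark blue, with cell counts above the bars and 95% Clopper-Pearson intervals for counting error. The fl/fl bar is above the +/+ bar for all T cells (3.73% and 2.59%) and for Ikzf2-high cells (4.68% and 2.96%), with intervals that do not meet. It is also above in the remaining class (2.04% and 1.65%) and below in the Cd8b1+ class (2.77% and 4.11%), with intervals that overlap.

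Cycling cells held more RNA than others and a small part of them carried genes of other blood cells. Their median was 16150 UMIs in fl/fl and 18542 in +/+ cells. No barcode was shared between the libraries among cycling cells, and a doublet caller marked 0 of 242 and 0 of 168 of them. Even so, 13 fl/fl (5.37%) and 19 +/+ (11.3%) cycling cells had at least 10 UMIs of a neutrophil, natural killer (NK), myeloid or erythroid list, or at least 3 of 4 B cell genes. Among non-cycling T cells these were 1.34% and 1.84%. In the Ikzf2-high class they were 3 fl/fl and 14 +/+ cells, where the 6 neutrophil genes summed to 9.69 CPM (UMI counts scaled to a common library total) in fl/fl and 12214 CPM in +/+ cells. Ltf of this list was at 0 in fl/fl cells, and no gene of it was at 0 in +/+ cells. The NK list summed to 35.9 and 187 CPM and the myeloid list to 132 and 755 CPM, while the B cell gene Ms4a1 was at 0 in both. These cells were kept, as the rule sets it, and counts of genes and the ratios of the main genes are also given without them. The choice to leave them out was made after the data were seen.

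The division genes of the rule chose the cells, so their levels in cycling cells are given as a description only. In Ikzf2-high cycling cells the 8 rule genes had CPM from 209 to 787 in fl/fl and from 192 to 692 in +/+ cells. They summed to 3331 and 2845 CPM, 7 of 8 had a ratio above 0, and 0 of 8 differed 1.5-fold. Top2a, the topoisomerase that untangles chromosomes, was at 665 CPM in fl/fl and 496 CPM in +/+ cells, a log2 ratio of 0.42 (0.33 to 0.52). Mki67 was at 333 and 290.3 CPM (0.20, 0.07 to 0.33), Ube2c, a ubiquitin-conjugating enzyme of mitotic exit, at 787 and 692 CPM (0.19, 0.10 to 0.27), and Ccnb2, cyclin B2, at 209 and 213 CPM (-0.03, -0.19 to 0.13). The ratios of the rule genes between genotypes are a description, because the rule used these counts.

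The pooled counts of +/+ cycling cells held a larger part of S phase genes. Over all cycling cells, a list of 52 S phase genes summed to 5352 CPM in fl/fl and 5687 CPM in +/+ cells, and the 59-gene G2/M list to 12555 and 12077 CPM. The S to G2/M ratio was 0.426 (0.420 to 0.433) in fl/fl and 0.471 (0.463 to 0.479) in +/+ cells. Cells with more S than G2/M UMIs were 42 of 242 fl/fl (17.4%, 12.8 to 22.7) and 44 of 168 +/+ cells (26.2%, 19.7 to 33.5), intervals that overlap. In the Ikzf2-high class they were 19.0% and 26.9%. Thinned to 5000 UMIs, the ratios over all cycling cells were 0.406 (0.394 to 0.419) and 0.421 (0.406 to 0.437), and their intervals overlap as well. In the Ikzf2-high class the ratio was 0.428 (0.421 to 0.435) in fl/fl and 0.4505 (0.441 to 0.460) in +/+ cells. After thinning it was 0.407 and 0.426 there, with intervals that overlap. In the remaining class the ratio was 0.385 (0.369 to 0.403) in fl/fl and 0.490 (0.474 to 0.506) in +/+ cells. Thinned, it was 0.387 and 0.396. In the Cd8b1+ class it was 0.514 and 0.628, and after thinning 0.464 and 0.459.

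**Figure D2:**
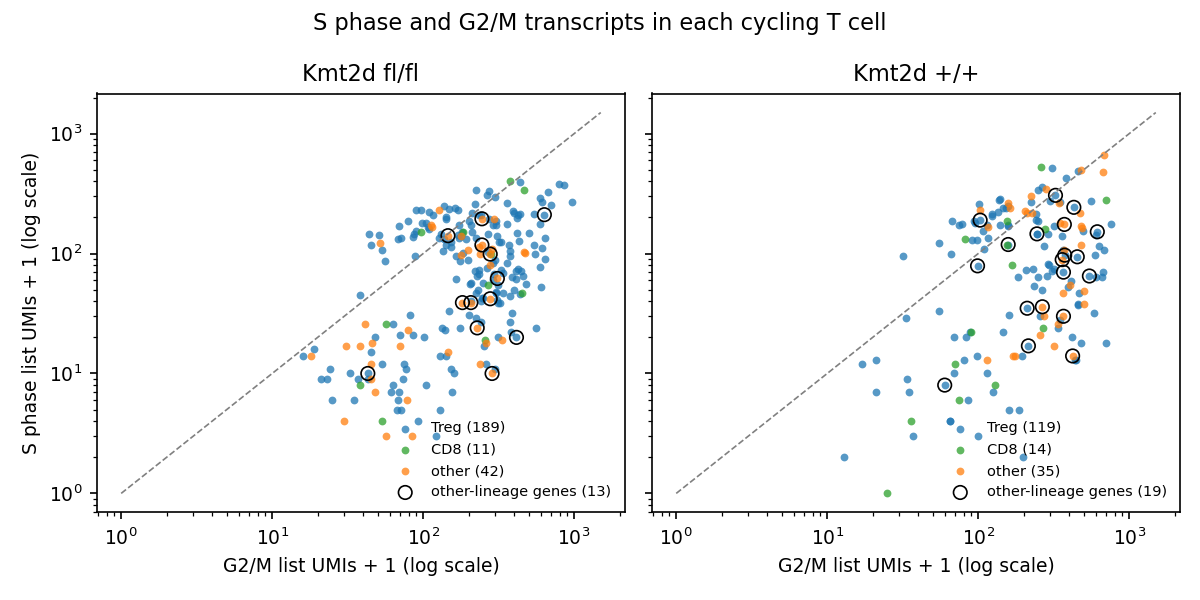
Each point is 1 cycling cell, fl/fl on the left and +/+ on the right, with its UMIs of the G2/M list on the x axis and of the S phase list on the y axis, each plus 1 on a log scale, coloured by class. The dashed line marks equal numbers, and 42 fl/fl and 44 +/+ cells lie above it. Rings mark the 13 and 19 cells with genes of other lineages.

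Few genes of the division machinery differed between the genotypes within Ikzf2-high cycling cells. A gene counted as measured at 20 CPM or more in either library and as higher or lower at a CPM ratio of at least 1.5 with an interval that excludes 1. Over all 6314 measured genes 202 were higher in fl/fl (3.2%) and 409 lower (6.48%), 9.68% in all, with a median log2 ratio of -0.01. Without the condition on the interval the counts were the same 202 and 409, so the interval removed no gene here. Without the cells holding other-lineage genes it was 221 higher (3.53%) and 344 lower (5.5%) of 6255, 9.03% in all, and 166 of the 202 and 273 of the 409 were among them. With cells thinned to 5000 UMIs 259 were higher and 447 lower, of which 102 were among the 202 and 233 among the 409. Since a gene enters through whichever library is higher, 264 genes passed only through the fl/fl and 404 only through the +/+ library. For such genes the floor itself favours a difference, and list counts and medians below describe the members that passed and support nothing further. Among the 6002 genes whose mean of both libraries reached 20 CPM, an alternative chosen after the data were seen, 165 were higher and 321 lower. Of 51 measured S phase genes 0 were higher and 1 lower (median -0.02), the lower one being Ung, a uracil-removing repair enzyme, with 84 UMIs in fl/fl and 92 UMIs in +/+ cells (log2 ratio of CPM -0.73, -1.18 to -0.29). Of 56 G2/M genes 1 was higher and 0 lower (median 0.16), namely Cdca2, a chromosome-bound regulator of phosphatase 1, at 61.8 and 37.7 CPM (0.71, 0.36 to 1.07). None of 27 spindle and kinetochore genes, 15 genes of the anaphase-promoting complex and cytokinesis, 15 condensin and cohesin genes and 18 genes of the RB, E2F and DREAM group passed the size rule. Their medians were 0.16, 0.26, 0.21 and 0.11. Without other-lineage cells 3 genes of these division lists were added as higher, namely Cit of cytokinesis (0.60), E2f3 (0.63) and the helicase gene Blm of the S phase list (0.59). Among 23 histone and chaperone genes Hist1h2ap alone was higher, at 494 and 316 CPM (0.65, 0.53 to 0.77).

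Among the cyclins and their kinases the D-type cyclin Ccnd2, which couples growth signals to the entry into the cycle, was the 1 of 15 that passed the size rule. It was at 211 CPM in fl/fl and 131 CPM in +/+ cells (0.68, 0.50 to 0.87), and at 413 and 297 CPM in non-cycling Ikzf2-high cells. Its relative Ccnd3 was at 237 and 272 CPM (-0.20, -0.34 to -0.05). Cdk4 and Cdk6, the partners of the D cyclins, were at 151 and 139.8 CPM (0.12) and at 123 and 105 CPM (0.24). Cdk2, which drives S phase, was at 31.4 and 45.3 CPM (-0.53, -0.91 to -0.14), just short of 1.5-fold. Ccne1, Ccne2, Ccna2 and Ccnb1 had ratios from -0.19 to 0.10, with intervals that include 0.

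Of 5 measured inhibitors of these kinases 1 passed the size rule, and it rested on a single cell. Cdkn1c, the imprinted inhibitor p57, was at 44.3 CPM in fl/fl and 3.18 CPM in +/+ cells (3.80, 2.79 to 5.04), with 91.1% of the fl/fl counts in 1 cell. It had a UMI in 10 fl/fl and 6 +/+ cells. The quiescence inhibitor Cdkn1b (p27) was at 96.4 and 83.0 CPM (0.22, -0.03 to 0.47) and Cdkn2c (p18) at 104.5 and 83.0 CPM (0.33, 0.09 to 0.58). Of 8 measured p53 target genes Ccng1, cyclin G1, was higher, at 56.6 and 33.0 CPM (0.78, 0.41 to 1.16), and the other members had ratios from -0.43 to 0.41.

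Genes higher in cycling than in non-cycling cells were mostly shared by the genotypes, while genes lower in cycling cells were more numerous in the +/+ library than in the fl/fl library. The choice of the cells fixes part of this, so it is a description. Within Ikzf2-high cells without other-lineage genes, 1271 of 6144 genes were higher in cycling than non-cycling fl/fl cells (20.7%) and 753 lower (12.3%). In +/+ cells 1203 were higher (19.6%) and 1350 lower (22%). The median log2 ratio over these genes was 0.04 in fl/fl and -0.09 in +/+ cells, and the counts were not centred on it. The same 1022 genes were higher in both, 644 were lower in both and 2 went opposite ways. The highest outside the rule were Kif14, Ccna2, Espl1, Kif18b, Nek2, Pbk, Pimreg, Esco2, H2ac10, Hmmr, Sapcd2 and Kif2c. Kif14, a motor of cytokinesis, was at 38.2 CPM in cycling and 0.0350 CPM in non-cycling fl/fl cells, and at 26.6 and 0.124 CPM in +/+ cells. Ccna2, cyclin A2, was at 155 and 0.210 CPM in fl/fl and at 159.8 and 0.371 CPM in +/+ cells.

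Beyond the cycle genes, cycling cells had more transcripts of mitochondrial respiration and fewer of quiescence in both libraries. Neither shift was particular to these lists. Of 28 oxidative phosphorylation genes 19 were higher in cycling than non-cycling fl/fl cells and 21 in +/+ cells, and 0 were lower in either. Their medians were 0.72 and 0.74. Of 14 housekeeping genes 7 were higher and 0 lower in each library, with medians of 0.55 and 0.62. Of 23 resting and quiescence genes 16 were lower in fl/fl and 17 in +/+ cells, with medians of -0.72 and -0.82. Of 17 genes downstream of interleukin-2 11 and 13 were lower, with medians of -0.83 and -1.04. Of 21 Treg identity genes 11 and 18 were lower, with medians of -0.71 and -0.92. Of 18 effector Treg genes 10 were higher in fl/fl and 9 in +/+ cells. Lgals1, the glycan-binding galectin 1 of effector Treg cells, was at 349 CPM in cycling and 45.5 CPM in non-cycling fl/fl cells (2.94), and at 1094 and 236 CPM in +/+ cells (2.21). Foxp3 was at 13.1 CPM in cycling and 26.5 CPM in non-cycling fl/fl cells (-1.02), and at 13.3 and 35.8 CPM in +/+ cells (-1.43). Il2ra was at 190.3 and 405 CPM in fl/fl and at 126 and 299 CPM in +/+ cells.

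**Figure D3:**
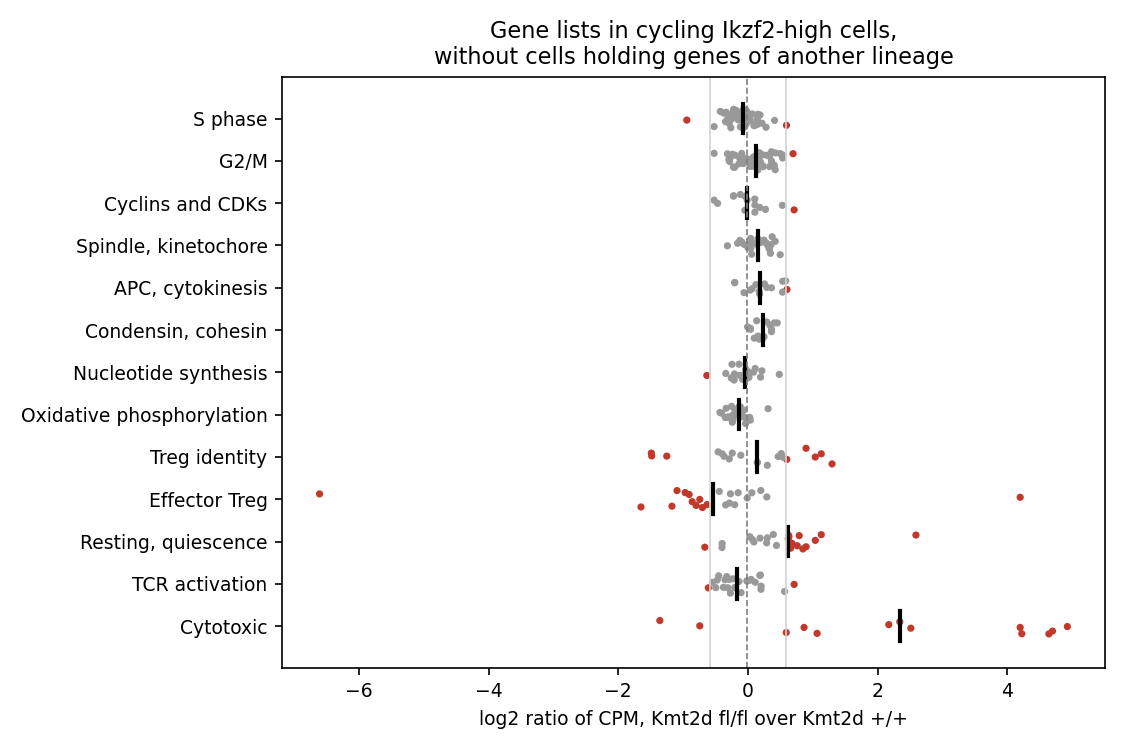
Log2 ratio of CPM, fl/fl over +/+, for every measured member of 13 gene lists in Ikzf2-high cycling cells without other-lineage genes. Red points passed the size rule and grey ones did not, black bars mark list medians, the dashed line is the median of all genes and light lines mark 1.5-fold. Division lists sit near 0, effector Treg genes to the left, and resting and cytotoxic genes to the right.

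Several effector Treg genes were lower in fl/fl than +/+ cycling Ikzf2-high cells. Of 33 in the file 23 passed the floor, 2 of them only through the fl/fl and 4 only through the +/+ library. Of the 23, 2 were higher, 10 lower and 11 neither (median -0.38, against -0.01 over all genes). Over all genes 3.2% were higher and 6.48% were lower. Without other-lineage cells 1 was higher and 11 lower of 22 (median -0.54), against 3.53% and 5.5% over all genes. Of the 19 with a mean of 20 CPM 1 was higher and 8 lower (median -0.32). All 33 summed to 3478 CPM in fl/fl and 4794 CPM in +/+ cells. Lgals1 was at 351 CPM in fl/fl and 1023 CPM in +/+ cells (-1.54, -1.64 to -1.45; -1.65 without other-lineage cells), with a UMI in 70 of 189 and 113 of 119 cells. S100a4, a calcium-binding protein of activated T cells, was at 220.2 and 515 CPM (-1.23, -1.35 to -1.10). Cxcr3, the chemokine receptor of type 1 inflammation, was at 38.2 and 73.9 CPM (-0.95, -1.27 to -0.63). Il1rl1, the interleukin-33 receptor ST2, had 1 UMI in all fl/fl cells and 55 UMIs in 18 +/+ cells (-6.38, -11.71 to -3.84). Ebi3, a subunit of interleukin-35, was at 4.19 and 20.3 CPM (-2.27, -3.18 to -1.44). The 2 higher members were Prdm1, the effector regulator Blimp-1, at 20.2 and 11.1 CPM (0.86, 0.22 to 1.54), and Gzmb, which is taken up with the cytotoxic genes.

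Several resting and quiescence genes were higher in fl/fl cycling cells. Of 24 in the file 23 passed the floor, 1 of them only through the fl/fl library. Of the 23, 9 were higher and 0 lower (median 0.48), against 3.2% higher and 6.48% lower over all genes. Without other-lineage cells 12 were higher and 1, Tcf7, lower (median 0.62), against 3.53% and 5.5% over all genes. Lef1, a transcription factor of naive and resting T cells, was at 401 CPM in fl/fl and 194 CPM in +/+ cells (1.05, 0.90 to 1.20; 1.13 without other-lineage cells). Satb1, a chromatin organizer, was at 328 and 178 CPM (0.89, 0.73 to 1.05), and Foxp1, a factor of T cell quiescence, at 764 and 439.6 CPM (0.80, 0.70 to 0.90). Ccr7, a chemokine receptor for entry into lymph nodes, was at 116 and 63.9 CPM (0.85, 0.59 to 1.12). Klf2 and its target S1pr1, which direct recirculation, were at 615 and 394 CPM (0.64) and at 144 and 83.8 CPM (0.78). Tcf7, which encodes TCF-1 and belongs to the same list, was at 156 and 232 CPM (-0.58, -0.74 to -0.41), opposite to Lef1.

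Treg identity genes moved both ways. Of 24 in the file 19 passed the floor, 2 of them only through the fl/fl and 1 only through the +/+ library. Of the 19, 5 were higher, 3 lower and 11 neither (median 0.27), with the same 5 and 3 without other-lineage cells. Over all genes 3.2% were higher and 6.48% lower. Il2ra was at 192 CPM in fl/fl and 121 CPM in +/+ cells (0.67, 0.47 to 0.87). Socs2 (1.32), Bach2 (0.85), Lef1 and Satb1 were the other higher members, the last pair also in the resting list. Nrp1, the receptor neuropilin 1 of thymus-derived Treg cells, was at 55.5 and 155 CPM (-1.48, -1.73 to -1.24), with a UMI in 52 of 189 fl/fl and 91 of 119 +/+ cells. Capg, an actin-capping protein, was at 71.8 and 185 CPM (-1.37) and Entpd1, the ATP-degrading ectoenzyme CD39, at 9.69 and 23.8 CPM (-1.30). Foxp3 was at 12.8 and 11.5 CPM (0.16, -0.54 to 0.87), with 49 UMIs in fl/fl and 29 UMIs in +/+ cells. After thinning its share of cells was 3.72% in fl/fl and 9.40% in +/+ cells, which goes against the CPM, so no order is read from it.

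Genes downstream of interleukin-2 and STAT5 had ratios on both sides of 0. Of 19 in the file 16 passed the floor, 1 of them only through the fl/fl and 1 only through the +/+ library. Of the 16, 5 were higher and 1 lower (median 0.11), against 3.2% higher and 6.48% lower over all genes. Ratios were above 0 in 8 and below 0 in 8. All 19 summed to 2688 CPM in fl/fl and 2589 CPM in +/+ cells. Il2ra, Ccnd2, Socs1, Socs2 and Myc were higher and Socs3 lower. Socs1, which dampens cytokine receptors that use JAK kinases, was at 48.7 CPM in fl/fl and 22.2 CPM in +/+ cells (1.13, 0.69 to 1.59), while in non-cycling Ikzf2-high cells its ratio was -0.07 (-0.15 to 0.01). Myc, a driver of growth and division, was at 76.7 and 42.1 CPM (0.87, 0.54 to 1.20). Of 27 MYC and ribosome biogenesis genes it was the 1 that passed the size rule (median 0.08). Socs3 was at 16.2 and 25.4 CPM (-0.65, -1.17 to -0.12), and in thinned cells its ratio was 0.12.

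P2rx7 (ENSMUSG00000029468, GRCm38 chromosome 5, 122643911 to 122691432, plus strand) was lower in fl/fl cycling Ikzf2-high cells. It was at 31.7 CPM in fl/fl and 61.2 CPM in +/+ cells (-0.95, -1.30 to -0.60), with 121 and 154 UMIs, and without other-lineage cells at 31.5 and 66.9 CPM (-1.08, -1.45 to -0.72). A P2rx7 UMI was in 13.8% of thinned fl/fl and 27.4% of thinned +/+ cells (37.6% and 52.1% before thinning), and in 1.02% and 1.95% of B cells. Non-cycling Ikzf2-high cells differed the same way, at 43.2 CPM in fl/fl and 74.6 CPM in +/+ cells (-0.79, -0.89 to -0.68), with a UMI in 17.6% and 28.6% of thinned cells. In the remaining class of cycling cells P2rx7 was at 18.2 and 19.4 CPM (-0.09, -1.44 to 1.16). Of 19 purinergic genes in the file 11 passed the floor, 2 of them, Entpd1 and Adora2a, only through the +/+ library. Of the 11, 1 was higher, the receptor P2ry10 (0.62), and 5 lower (median -0.01), against 3.2% higher and 6.48% lower over all genes. Of the 9 with a mean of 20 CPM 1 was higher and 3 lower (median 0.18). All 19 summed to 728 CPM in fl/fl and 821 CPM in +/+ cells. Besides P2rx7 and Entpd1 the lower ones were Adora2a, an adenosine receptor, at 10.5 and 29.4 CPM (-1.49), adenosine kinase Adk, at 90.3 and 183 CPM (-1.02), and Pnp, a purine phosphorylase (-0.70). Kmt2d itself (ENSMUSG00000048154, chromosome 15, 98831669 to 98871204, minus strand) was at 37.5 and 41.7 CPM (-0.16, -0.53 to 0.22). Tags from the 3′ end check nothing about a deletion elsewhere in the gene, and which exons were floxed is not given in the sources used here.

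Several cytotoxic genes were higher in fl/fl cycling Ikzf2-high cells, and their counts lay in a minority of the cells. Of 20 in the file 13 passed the floor, 6 of them only through the fl/fl and 2 only through the +/+ library. Of the 13, 10 were higher, 1 lower and 2 neither (median 1.19), against 3.2% higher and 6.48% lower over all genes. Of the 10 with a mean of 20 CPM 8 were higher and 1 lower (median 1.81), against 165 and 321 of all 6002 such genes. All 20 summed to 1508 CPM in fl/fl and 462 CPM in +/+ cells, and without other-lineage cells to 1197 and 276 CPM. Ccl5, a chemokine of effector lymphocytes, was at 475 CPM in fl/fl and 55.2 CPM in +/+ cells (3.11, 2.86 to 3.37). The granule proteases Gzma and Gzmb were at 266 and 29.4 CPM (3.18, 2.84 to 3.54) and at 96.1 and 7.15 CPM (3.75, 3.07 to 4.52). Gzmk had 127 UMIs in fl/fl and 2 UMIs in +/+ cells (5.39, 3.51 to 8.45). Eomes, a transcription factor of cytotoxic and memory cells, was at 38.5 and 7.15 CPM (2.43, 1.72 to 3.22). Without other-lineage cells the ratios were 4.70 for Ccl5, 4.22 for Gzma, 4.20 for Gzmb, 4.93 for Gzmk and 2.17 for Eomes, and Ccl4 was at 0 in +/+ cells (at least 4.64, against 3.06 with all cells). Cst7, an inhibitor of granule cathepsins, was at 18.6 and 40.9 CPM (-1.14), opposite to the others. In non-cycling Ikzf2-high cells Ccl5 was at 430.1 and 375 CPM (0.20) and Gzma at 51.3 and 56.1 CPM (-0.13), while Gzmb was at 48.4 and 14.1 CPM (1.78). A Gzmb UMI was in 12.2% of thinned fl/fl and 1.71% of thinned +/+ cycling cells of the class (13.2% and 5.04% before thinning), and in 0.158% and 0.195% of B cells. Before thinning, a Gzma UMI was in 8.47% of fl/fl and 11.8% of +/+ cycling cells of the class, which goes against the CPM. The shares were 15.9% and 11.8% for Ccl5, 11.6% and 1.68% for Gzmk, and 16.9% and 4.2% for Eomes.

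These counts came from cells that differed from the rest of the class. Cells with at least 10 UMIs of Ccl5, Gzma, Gzmb, Gzmk, Eomes and Ccl4, a set chosen after its values were seen, were 28 of 189 fl/fl (14.8%, 10.1 to 20.7) and 4 of 119 +/+ cells (3.36%, 0.923 to 8.38). They held 96.8% of the fl/fl and 69.5% of the +/+ counts of the set. Of the 28 fl/fl cells 20 had a Cd4 UMI, 7 a Cd8b1 UMI, 4 a Cd8a UMI, 2 a Foxp3 UMI and 2 other-lineage genes, and their median was 14.5 Ikzf2 UMIs, against 34 in the other fl/fl cells. Among non-cycling Ikzf2-high cells such cells were 5.27% in fl/fl and 4.23% in +/+. In the remaining class of cycling cells they were 22 of 42 in fl/fl and 5 of 35 in +/+, of which 10 and 2 had other-lineage genes. Among cycling Cd8b1+ cells they were 9 of 11 and 9 of 14. Without them, 228 genes were higher and 484 lower in fl/fl Ikzf2-high cycling cells, and 163 of the 202 and 376 of the 409 reported ones were kept. Without them Lgals1 was at -2.56, Lef1 at 1.21 and P2rx7 at -0.88.

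The remaining genes of largest ratio were of several kinds. Of the 12 highest in fl/fl, Gzmk, Gzmb, Gzma, Ccl5, Ccl4, Eomes and Cdkn1c are described above. Hdac9, a histone deacetylase, was at 160.3 CPM in fl/fl and 36.5 CPM in +/+ cells (2.13, 1.82 to 2.47), with a UMI in 65 and 25 cells, while non-cycling cells had 202 and 184 CPM (0.14). Fgf13, an intracellular fibroblast growth factor homologue, was at 104 and 25.8 CPM (2.01, 1.63 to 2.41), and at 225 and 95.8 CPM in non-cycling cells. Pard3b, a cell polarity gene, was at 31.4 and 5.16 CPM (2.61, 1.78 to 3.56), Tspoap1 at 21.0 and 4.77 CPM (2.14) and Cenpv at 45.0 and 12.7 CPM (1.83).

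Of the 12 lowest, 11 were at 0 or below 10 CPM in both libraries once other-lineage cells were left out. They were Sirpa, Camp, S100a8, S100a9, Ngp, Lcn2, Ltf, Wfdc21, Serpinb1a, Ifitm6 and Hp, many of them genes of neutrophil granules. S100a8 was at 2.62 CPM in fl/fl and 3677 CPM in +/+ cells, and at 2.41 and 8.06 CPM without them. The other was Il1rl1, described above. Chosen again without these cells, the 12 lowest were Il1rl1, Apobec3, Cd79b, Ramp1, Cybb, Ifi208, Cass4, Cbx7, Nav2, Tshz2, Cyth4 and Slfn5. Apobec3 (chromosome 15, 79891659 to 79915906, plus strand), an antiviral DNA-editing enzyme, was at 19.8 CPM in fl/fl and 221 CPM in +/+ cells (-3.49, -3.86 to -3.13), with a UMI in 53 of 189 fl/fl and 106 of 119 +/+ cells before they were left out. Cybb, a subunit of the NADPH oxidase, was at 6.95 and 47.4 CPM (-2.77), Ramp1, a neuropeptide receptor partner, at 9.09 and 64.0 CPM (-2.82), and Cbx7, a Polycomb protein, at 5.08 and 23.2 CPM (-2.19).

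Many of the lower genes were also lower in non-cycling Ikzf2-high cells. In those 107 of 6134 genes were higher (1.74%) and 571 lower (9.31%), 11.1% in all, with a median log2 ratio of -0.14. Without other-lineage cells these shares were 1.74%, 9.27% and 11% of 6094 genes. Over the 5630 genes measured in both, 209 were lower in cycling and in non-cycling cells, which is 62.6% of the cycling and 44.8% of the non-cycling calls. Those higher in both were 48, which is 28.2% and 53.3%. With each comparison centred on its median, 201 genes were higher and 377 lower in non-cycling cells. Then 177 genes were lower in both, which is 55.0% of the cycling and 57.3% of the non-cycling calls, and 66 were higher in both, which is 37.3% and 37.9%. The cells of both come from the same pools, so this overlap is no independent support. Effector Treg genes had 2 higher and 16 lower of 24 in non-cycling cells (median -0.98), and resting genes 9 higher and 1 lower of 23 (median 0.37). T cell receptor activation genes had 1 higher (Myc) and 1 lower (Dusp1) of 26 in cycling cells (median -0.24), against 1 and 11 of 26 in non-cycling ones (median -0.50). Over all genes in cycling cells 3.2% were higher and 6.48% lower. Whether the ratios differ between cycling and non-cycling cells was not tested.

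**Figure D4:**
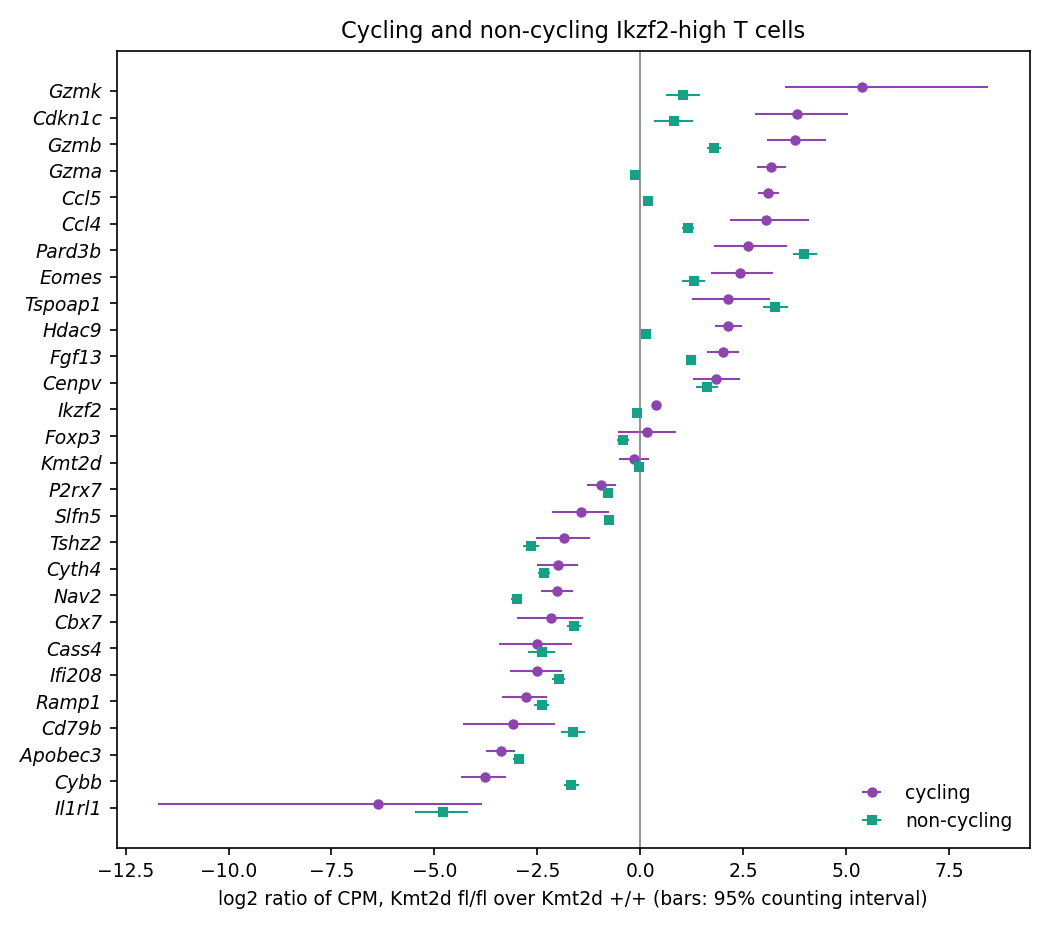
Log2 ratio of CPM, fl/fl over +/+, in cycling (purple circles) and non-cycling (green squares) Ikzf2-high cells, all cells kept, with bars for 95% counting intervals. Shown are the 12 highest genes, the 12 lowest chosen without other-lineage cells, and P2rx7, Foxp3, Kmt2d and Ikzf2. Gzma and Hdac9 are high in cycling cells (3.18 and 2.13) and near 0 in non-cycling ones (-0.13 and 0.14), while Apobec3 is low in both (-3.39 and -2.96).

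The cycling cells outside the Ikzf2-high class were too few for most comparisons. Over all cycling T cells, where the classes are mixed in unequal parts, 178 of 6277 genes were higher (2.84%) and 285 lower (4.54%), 7.38% in all. In the remaining class, Gzma was at 3694 CPM in fl/fl and 532 CPM in +/+ cells (2.80, 2.65 to 2.95). Ccl5 was there at 3566 and 352 CPM (3.34, 3.17 to 3.52). NK list genes summed to 1227 and 444 CPM there and neutrophil list genes to 7463 and 21977 CPM, and their part in the result was not tested. Lgals1 was at 1169 and 980.0 CPM in these cells (0.25, 0.10 to 0.41), unlike the Ikzf2-high class. Apobec3 was at 28.4 and 250.2 CPM (-3.14, -4.04 to -2.36), close to the Ikzf2-high value. In Cd8b1+ cycling cells Ccl5 was at 4594 and 4398 CPM (-0.07 to 0.19) and Gzmb at 524 and 439.8 CPM (-0.15 to 0.66), with log2 intervals that include 0.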

How the data were processed

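The deposited matrices hold raw UMI counts per gene and barcode, whole numbers with no normalization per the file headers, for 31253 genes in 8784 fl/fl and 7947 +/+ barcodes (63989234 and 53680614 UMIs). Seurat 4.1.1, fastp and Cell Ranger 7.1.0 were used with the builds mm10 and GRCm38, per the submitters' processing notes. The filters behind the deposited barcodes are not given in the sources used here. After the gene and mitochondrial filters 8634 and 7790 barcodes remained. The libraries share 15 barcodes, none among cycling cells.

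Counts were summed per library and class, scaled to CPM by total UMIs, and compared as a log2 ratio, fl/fl over +/+, with an exact conditional binomial 95% interval. A count of 0 was set to a floor of 3 counts for a ratio. Shares have Clopper-Pearson intervals. Because cells of 1 library are not replicates, nothing was tested, and counts of genes follow a rule of size (20 CPM, 1.5-fold, interval excluding 1). The rule was tried on simulated counts with known changes before use. Ikzf2-high cycling cells held 3818800 fl/fl and 2518279 +/+ UMIs, medians of 17755 and 18457 a cell. UMIs are counted molecules, and free RNA in droplets adds to them. Strand use in counting is not given, so reads of overlapping and near-identical genes, such as the histone genes, are uncertain.

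Doublets were scored with Scrublet in scanpy 1.11.5 (Python 3.11.15, scipy 1.17.1). Its automatic threshold called 0.0232% of fl/fl and 0 of +/+ barcodes, under the 0.5% taken as working, so Otsu's threshold was used, which called 189 (2.19%) and 116 (1.49%). Doublets were kept, and leaving them out was an alternative. Alternatives were other thresholds of the 8-gene sum, thinned cells, stricter gates, other CPM floors and folds, scaling to a median gene ratio of 1, and each cell weighted alike. Leaving out cells with other-lineage genes or with cytotoxic UMIs, and a floor of 20 CPM on the mean of both libraries, were chosen after the data were seen.

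Members, the 36 gene lists and the rules were chosen with earlier results of these data known. Named genes are the rule genes and a few of interest, the 12 highest and 12 lowest ratios in Ikzf2-high cycling cells that held their direction at a sum of 10, in thinned cells and without doublets, the 12 highest of cycling over non-cycling cells, and up to 3 members at each end of every list. Members of a list named beyond these, such as S100a4, Klf2, S1pr1, Foxp1, Bach2, Il2ra and Pnp, and the 12 lowest chosen without other-lineage cells, were named after their values were seen. Gene positions are from GENCODE vM21 (GRCm38). A few list members are not reported here.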

Additional observations from a re-analysis of the deposited data

Results flagged for a closer look

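A few genes had ratios of opposite direction in cycling and non-cycling Ikzf2-high cells, each at least 1.5-fold with an interval that excludes 1, and the difference between the cell states was not tested. Over all genes the non-cycling ratios have a median of -0.14. Centred on it, the non-cycling ratios of Tnfsf8 (-0.46), Ifng (-0.53) and Penk (-0.54) fell short of 1.5-fold, while Ttn, Dscam and Dock4 kept calls of opposite direction. Tnfsf8, a TNF family ligand of activated T cells, was at 239 CPM in fl/fl and 154 CPM in +/+ cycling cells (log2 ratio 0.64) and at 182 and 276 CPM in non-cycling cells (-0.60). Ifng, the cytokine interferon gamma, had log2 ratios of 0.63 in cycling and -0.67 in non-cycling cells, Penk, the enkephalin precursor, 0.74 and -0.68, and Ttn 0.62 and -1.11. Dscam had 0.64 and -1.19. Without other-lineage cells, cycling ratios were 0.52 for Tnfsf8, 0.59 for Ifng, 0.63 for Penk, 0.40 for Ttn (-0.21 to 1.03) and 3.46 for Dscam. Dock4 had -0.94 in cycling and 0.87 in non-cycling cells, and without other-lineage cells the cycling ratio was 1.08 (0.14 to 2.13), the same direction as in non-cycling cells.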

How the results depend on the processing

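No paired analysis was possible because each genotype has 1 library, and depth limits genes under 20 CPM. In Ikzf2-high cycling cells the reported 202 higher and 409 lower genes became 86 and 155 at 50 CPM and 53 and 159 at 2-fold, and 657 were lower at 10 CPM. Over all cycling cells 178 and 285 became 282 and 537 at 10 CPM, 84 and 114 at 50 CPM and 48 and 99 at 2-fold, and 278 were higher in thinned cells. In non-cycling Ikzf2-high cells 107 and 571 became 201 and 377 with median scaling, 68 and 297 at 50 CPM and 31 and 202 at 2-fold, and 169 were higher at 10 CPM. Median scaling gave 209 and 397 in cycling ones. Leaving out the condition on the interval changed none of the reported counts. At a sum of 4 the cycling share was 4.68% and 3.01%, and thinned it was 1.92% in +/+. The Ikzf2-high share was 87.6% and 82.7% (Cd8b1+ 2.07% in fl/fl) at 1 Ikzf2 UMI, and 70.0% and 55.5% in thinned cells. The S to G2/M ratio was 0.406 and 0.421 thinned, 0.443 and 0.486 at a sum of 4, 0.408 and 0.453 at 10, 0.393 and 0.413 with cells weighted alike, and 0.436 and 0.494 without other-lineage cells, lower in fl/fl each time. Log2 ratios that turned were, without other-lineage cells, Cd74 to 0.40, Fcer1g to 0.55, H2-Aa to 1.92, Hp and Lcn2 to 0.76, Tyrobp to 0.98 and Wfdc21 to 0.17, and in thinned cells Socs3 to 0.12. Without cells of 10 cytotoxic UMIs, a choice that fixes these, Ccl4 went to -1.76, Ccl5 to -0.057, Gzma to -1.38 and Gzmb to -0.83. Ifitm1, which is not in the set that chose those cells, went to -5.57. Of 760 values for 85 named genes 665 stayed within the reported interval and 82 moved in the same direction.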

Other observations

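A few interferon response genes were lower in fl/fl cycling Ikzf2-high cells. Of 28 in the file 24 passed the floor, 5 of them only through the +/+ library. Of the 24, 0 were higher and 4 lower (median log2 ratio -0.16), against 3.2% higher and 6.48% lower over all genes. Ratios were above 0 in 10 and below 0 in 14. All 28 summed to 3754 CPM in fl/fl and 4106 CPM in +/+ cells. Without other-lineage cells 0 were higher and 5 lower (median -0.27). Ifit1, an inhibitor of viral translation, was at 12.1 CPM in fl/fl and 34.2 CPM in +/+ cells (-1.50, -2.05 to -0.97), and Isg20, an antiviral exonuclease, at 23.8 and 54.4 CPM (-1.19, -1.59 to -0.80). Irf7 was at 19.1 and 33.0 CPM (-0.79) and Ifi208, a DNA sensor of the p200 family, at 7.33 and 41.7 CPM (-2.51). In non-cycling cells Ifit1 and Isg20 had ratios of -0.31 and -0.31.

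Homing receptors went both ways. Of 23 in the file 16 passed the floor, 1 of them only through the fl/fl and 2 only through the +/+ library. Of the 16, 4 were higher and 3 lower (median -0.23), against 3.2% higher and 6.48% lower over all genes. All 23 summed to 1828 CPM in fl/fl and 1805 CPM in +/+ cells. Among the lower ones Ccr4 was at 12.8 CPM in fl/fl and 27.0 CPM in +/+ cycling cells (-1.07, -1.63 to -0.52) and the gut integrin chain Itgb7 at 112 and 185 CPM (-0.73, -0.93 to -0.54). Of 19 survival and death genes, all of which passed the floor in both libraries, 2 were higher and 1 lower (median 0.03). The shares over all genes were 3.2% higher and 6.48% lower. All 26 in the file summed to 2090 CPM in fl/fl and 1867 CPM in +/+ cells. Bcl2l11 (BIM) was among the higher ones (0.89, 0.55 to 1.23), and Bcl2a1d was the lower one (-0.78, -1.03 to -0.54). None of 28 oxidative phosphorylation, 15 glycolysis, 22 nucleotide synthesis, 24 DNA methylation and H3K4 or 14 housekeeping genes passed the size rule in Ikzf2-high cycling cells with all cells kept. Without other-lineage cells Ncoa6 (0.68) of the H3K4 list was higher and Mthfd1 (-0.63) of nucleotide synthesis lower.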
